A study of Homo sapiens with 30 samples.

Results

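Of the 27630 gene rows in the count tables, 1530 carried a LINC symbol (LINC followed by digits), and 115 of these reached at least 100 counts summed over 8 RNA libraries. These 115 LINC genes, selected on that sum of counts, are described here. The sum ran from 101 (LINC01551) to 4403 (LINC00641) with a median of 223, and 590 LINC rows had no count in any library. LINC01399 and LINC01806, with 105 counts each, stood just inside the limit, and LINC00954 with 99, LINC01011 with 98 and LINC00959 with 96 stood just outside it. A further 92 of the 1415 LINC rows below the limit passed the filter on low counts, as did all 115 chosen genes.

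LINC symbols are placeholder names for long RNA genes that lie between protein-coding genes, and most have no assigned function. Such RNAs are transcribed by RNA polymerase II, usually capped, spliced and polyadenylated, and tend to be retained in the nucleus more than messenger RNAs. Some regulate a neighbouring gene, and some have turned out to encode small proteins. The nuclear lamina, a protein layer under the inner nuclear membrane, touches gene-poor and mostly silent stretches of chromatin called lamina-associated domains.

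RNA came from HEK293FT cells, a line derived from human embryonic kidney, with 2 libraries in each of 4 groups: a nuclear fraction, a cytosolic fraction, a native lamina preparation, and a lamina preparation fixed with paraformaldehyde (PFA). All 4 groups, the fractions included, came from asynchronous cells transfected with a construct of the peroxidase APEX2 joined to lamin B1, so the lamina preparations hold RNA recovered by labelling near that fusion, and no library without the construct was analysed here. Trizol was used for extraction, and libraries were made after ribosomal RNA depletion. Domains came from another line, HCT116 (colorectal carcinoma), as 1 consensus list for each of G1, S and G2. Nothing in the labels says that 2 replicates came from separate cultures, so p-values measure the spread between these libraries, which may be technical.

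Total counts ran from 2321291 (PFA lamina replicate 2) to 8557777 (native lamina replicate 1). All 5 markers of HEK293 cells had counts, with a summed level of 357 to 1712 CPM (counts scaled to library size and TMM factor) per library. The 6 markers of HCT116 summed to 21.8 to 48.8 CPM. HBG1, HBG2 and HBE1, markers of the erythroid line K562, were at 0 everywhere. LMNB1, the gene of the fusion, had 3231 and 3507 CPM in nuclear and 4197 and 6382 in cytosolic libraries. It had 76513 and 26168 CPM in native lamina and 96237 and 81004 in PFA lamina libraries. PFA lamina replicate 1 stood apart from its partner. Over the 115 LINC genes, Pearson's r of log2 CPM was 0.892 against cytosolic replicate 1 but 0.754 against PFA lamina replicate 2, as a description across genes that share those libraries.

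In the deposited hg19 gene models, 85 of the 115 genes lay clear of every other gene: their span overlapped no other gene's span and they shared no exonic base. The span of 27 overlapped another gene's span, and 2 had no single place. No exonic base was shared with another row in 94 of the 115, while 21 shared some, 13 with a gene on the opposite strand and 8 with one on the same strand. Reads were counted without regard to strand and once for each gene they overlapped, so those 21 values can hold a partner's reads. LINC00216, with 1 exon block, shares no exonic base but lies within another gene's span, so unspliced reads of that gene can count there. LINC00630 shared 66.0% of its exonic bases with ARMCX5-GPRASP2, LINC01783 shared 76.5% with LOC440570 and LINC01296 shared 47.8% with DUXAP10. The nearest gene lay within 1000 bases for 18 genes. Exonic length ran from 470 to 11395 bases (median 2418), and 24 genes had 1 exon block.

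Matched to RefSeq by symbol (89) or synonym (26), 107 of the 115 are now classed as long non-coding RNA, 7 as protein-coding and 1 as a pseudogene. The protein-coding ones include LINC00998, now SMIM30, a small membrane protein, LINC00116, now MTLN, a microprotein of mitochondria, and LINC00094, now BRD3OS, named for the opposite strand of the BRD3 gene.

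LINC genes took a small share of every library, and the largest share in the nuclear ones. The 115 genes held 0.186% and 0.151% of nuclear counts, against 0.0896% and 0.0629% of cytosolic counts. The native lamina libraries had 0.122% and 0.129%, and the PFA lamina libraries 0.0850% and 0.132%. Both nuclear values were above all others, both native values lay between the fractions, and PFA replicate 1 fell within the cytosolic range while replicate 2 did not. The 95% Wilson intervals of replicates of 1 group did not meet in the nuclear group (0.183% to 0.189% against 0.148% to 0.154%), so replicates varied by more than counting error. The rows below the limit, which were not chosen, held 0.0531% and 0.0378% of nuclear counts against 0.0134% and 0.00839% of cytosolic counts. Shares are relative: a higher share of these RNAs and less of other RNA cannot be told apart, nor can fewer cells and less RNA per cell.

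**Figure D1:**
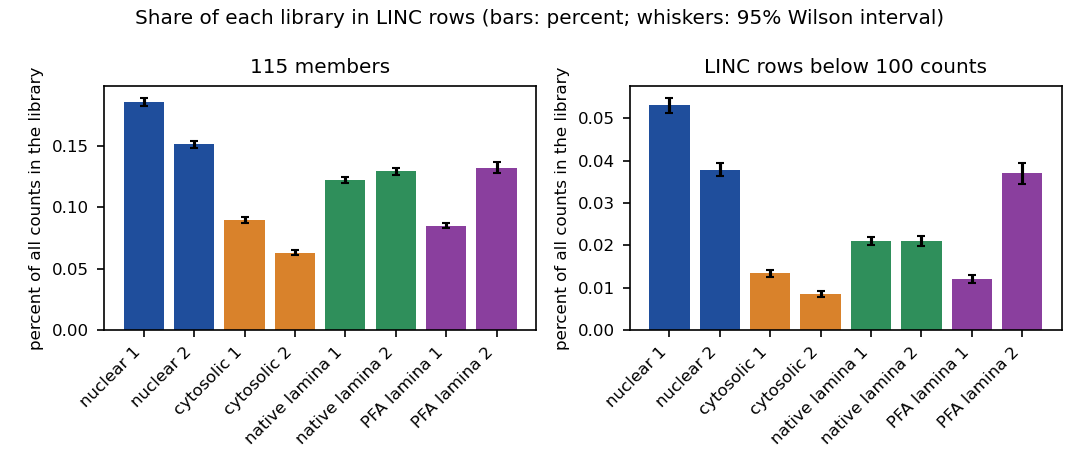
Percent of all counts in each of the 8 libraries (vertical axis) held by the 115 LINC genes (left) and by the LINC rows below 100 counts (right), with 95% Wilson intervals as whiskers. In the left panel the nuclear libraries stand at 0.186% and 0.151% and the cytosolic ones at 0.0896% and 0.0629%.

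Nuclear RNA was compared with cytosolic RNA first. Of the 115 LINC genes, 52 were higher in the nuclear fraction and 3 were lower at an adjusted p under 0.05 (edgeR's quasi-likelihood test, Benjamini-Hochberg over 16504 genes). Among all tested genes 26.1% were called higher and 21.2% lower. The median log2 fold change of the 115 was 1.44, against 0.13 over all tested genes and 0.09 over 12892 tested genes within the same range of counts. Because nuclear counts helped to choose these genes, they are not an unbiased sample: 81 would still reach 100 counts without the nuclear libraries. Of the 56 with at least 100 counts in the 4 lamina libraries alone, a choice made after seeing the data and free of both fractions, 25 were higher in the nuclear fraction (44.6%) and 3 were lower, with a median log2 fold change of 0.98. Leaving out nuclear replicate 1 lowered the 52 to 29.

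**Figure D2:**
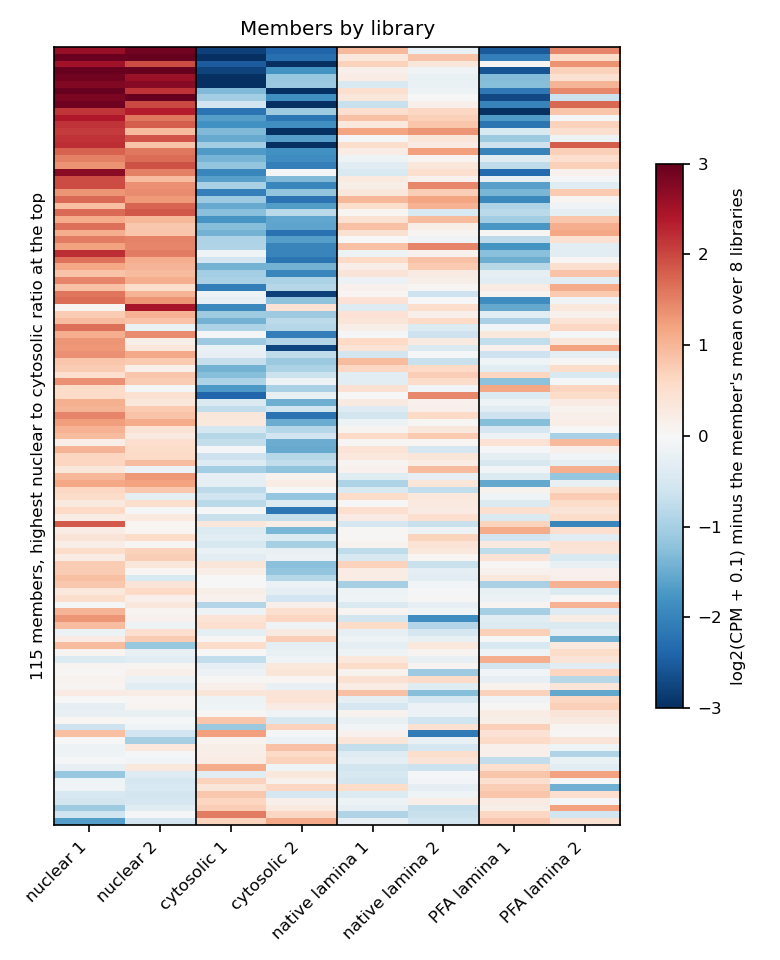
Log2(CPM + 0.1) of each of the 115 LINC genes (rows) in each library (columns), minus that gene's mean over 8 libraries, ordered by the fold change of nuclear against cytosolic. The 52 genes higher in the nuclear fraction are mostly in the upper part, where both nuclear columns are red and both cytosolic columns blue, and PFA lamina replicate 1 is bluer than replicate 2.

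Among the 6 genes with the largest nuclear to cytosolic fold changes, LINC01004 had the most counts. It is a single-block gene of 9419 bases at chr7:104622194-104631612 (hg19, as are the gene positions that follow) on the minus strand. Its nuclear values were 98.0 and 105 CPM, its cytosolic values 1.07 and 2.54, and it had 15.6 and 22.7 in native lamina libraries, and 2.96 and 18.4 in PFA lamina libraries. Nuclear libraries stood far above all 6 others, and both native values lay between the fractions. The log2 fold change of nuclear against cytosolic was 5.89 (SE 0.68, adjusted p = 0.000485).

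LINC01355, a gene with 2 blocks and 3511 exonic bases at chr1:23607802-23612011 on the minus strand, had a like pattern. Its values were 66.1 and 48.4 CPM in nuclear, 0.802 and 1.69 in cytosolic, 6.76 and 5.60 in native lamina, and 0.924 and 9.93 in PFA lamina libraries. The nuclear libraries did not overlap any other group, and the PFA pair spanned both the cytosolic and the native values. Its nuclear to cytosolic log2 fold change was 5.58 (SE 0.74, adjusted p = 0.00058).

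LINC00641 had the most counts of the 115. It is a gene of 2 blocks at chr14:21668238-21675059 on the minus strand, 2237 bases from HNRNPC, the gene of a nuclear RNA-binding protein. It reached 201 and 197 CPM in nuclear, 36.6 and 22.2 in cytosolic, 69.4 and 64.4 in native lamina, and 40.1 and 96.0 in PFA lamina libraries. All 4 lamina values lay between the fractions. The log2 fold change between fractions was 2.75 (SE 0.39, adjusted p = 0.000686).

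Several nuclear genes of low level were at or under 3 counts in both cytosolic libraries, so their fold changes are lower bounds against 3 counts per library. LINC02367 was at least 21.2-fold higher in the nuclear fraction (64 and 70 counts against 1 and 1). LINC01415 was at least 18.9-fold higher (75 and 46 against 2 and 0). LINC00696 and LINC01730 were at least 14.8-fold and 14.5-fold higher, with 40 to 54 and 43 to 49 nuclear counts. LINC00216, a single-block gene of 1120 bases on chromosome 14, had 13.1 and 15.8 CPM in nuclear against 0.802 and 0.423 in cytosolic libraries (log2 fold change 4.45, SE 0.69, adjusted p = 0.0008). LINC00342 had 52.0 and 29.6 against 3.08 and 2.11 CPM (3.94, SE 0.52, edgeR adjusted p = 0.000567).

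The 3 genes higher in the cytosol were LINC02381, LINC00998 and LINC00094. LINC02381, at chr12:54519855-54526626 on the plus strand, had 6.85 and 14.6 CPM in nuclear, 34.6 and 48.4 in cytosolic, 18.5 and 14.3 in native lamina, and 38.1 and 30.2 in PFA lamina libraries. The native values were close to the higher nuclear library and the PFA values overlapped the cytosolic range. Its nuclear to cytosolic log2 fold change was -1.95 (SE 0.38, adjusted p = 0.00183), a call kept without any 1 library.

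LINC00998 (SMIM30) had 3.58 and 5.33 CPM in nuclear and 16.2 and 8.46 in cytosolic libraries (log2 fold change -1.48, SE 0.53, adjusted p = 0.0347). LINC00094 (BRD3OS) had 30.2 and 31.1 against 68.5 and 49.1 CPM (-0.94, SE 0.29, adjusted p = 0.0177), and 22.2% of its exonic bases are shared with BRD3. Both pairs were apart, and both calls were lost without nuclear replicate 1, without nuclear replicate 2 or without cytosolic replicate 1. LINC00116 (MTLN) had 3.11 and 5.15 CPM in nuclear and 11.2 and 8.25 in cytosolic libraries and did not pass (-1.24, SE 0.50, adjusted p = 0.0568). Of all 7 genes now classed as protein-coding, 3 were higher in the nuclear fraction and 2 lower, and of the 107 non-coding ones 48 were higher and 1 lower. Of all tested genes 26.1% were higher and 21.2% lower.

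**Figure D3:**
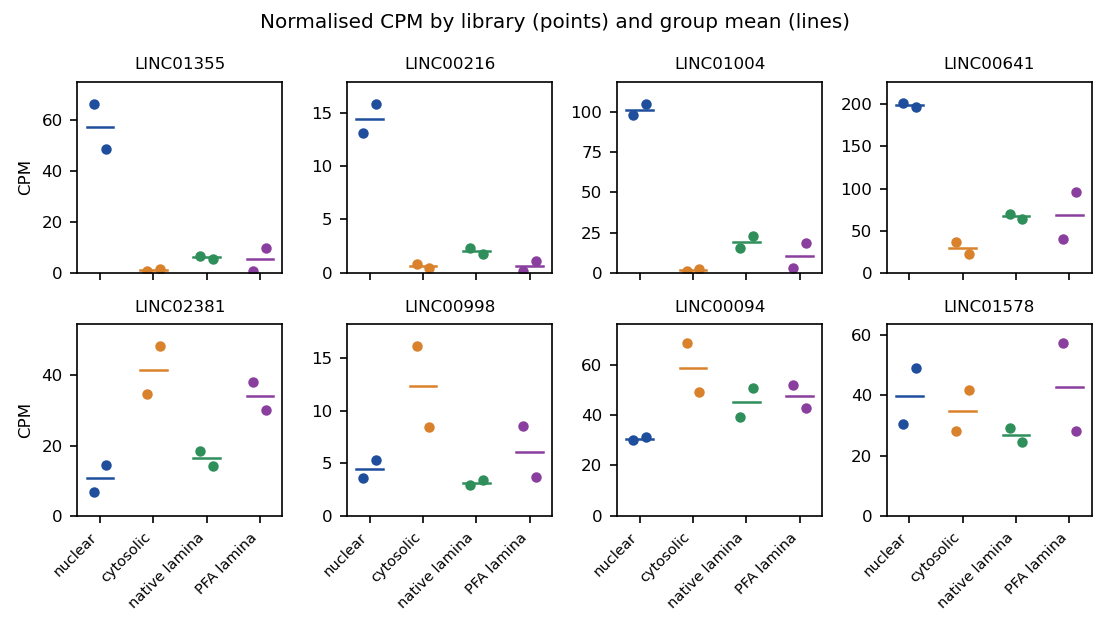
Normalised CPM (vertical axes, from 0) of 8 LINC genes in the 2 libraries of each group (points), with group means as lines. LINC01355, LINC00216, LINC01004 and LINC00641 are highest in both nuclear libraries, and LINC02381, LINC00998 and LINC00094 are higher in both cytosolic than in both nuclear libraries.

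Of the 10 genes with the highest level per kilobase of exon, averaged over the 4 groups, 3 passed the test between fractions. LINC01715 (TAF12-DT, a divergent transcript of TAF12) led at 39.7 CPM per kilobase, but it shares 135 exonic bases with RNU11, a small nuclear RNA of the minor spliceosome. Its counts were 295 and 263 in nuclear, 372 and 237 in cytosolic, 686 and 108 in native lamina and 338 and 36 in PFA lamina libraries. RNU11 had 258 and 235, 346 and 225, 668 and 85, and 318 and 29 in the same order, so the LINC01715 row followed that of RNU11 in each library and their reads cannot be told apart. LINC02381 came next at 18.4 CPM per kilobase.

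LINC01578 is now CHASERR, a non-coding RNA known to repress its neighbour CHD2 in cis, and it stood at 17.8 CPM per kilobase. It had 30.7 and 49.1 CPM in nuclear, 28.1 and 41.9 in cytosolic, 29.3 and 24.5 in native lamina and 57.3 and 28.3 in PFA lamina libraries. The 2 fractions overlapped, and the log2 fold change was 0.19 (SE 0.37, adjusted p = 0.685). LINC02001 (SNHG30, a small nucleolar RNA host gene), LINC02482, LINC00294, LINC00339 and LINC00674 had levels of 7.53 to 17.3 CPM per kilobase and adjusted p of 0.114 to 0.942 between fractions. Of the 10 genes highest per kilobase, LINC00641 was higher in the nuclear fraction, LINC02381 and LINC00094 were lower and the other 7 did not pass. By structure, 15 of the 24 genes with 1 exon block were higher in the nuclear fraction (median log2 fold change 1.85). Of the 91 with several blocks 37 were (1.36), and of all tested genes 26.1% were. Nuclear counts helped to choose both sets, and the difference between them was not tested.

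At the native lamina, no LINC gene was higher than in the nuclear fraction and 8 were lower (edgeR), where 3.87% of all tested genes were higher and 3.44% lower. At an unadjusted p under 0.05 none of the 115 was higher and 31 were lower. In either direction, 4754 of the 16504 tested genes passed that threshold. The Wald test of DESeq2 called 0 and 9. The median log2 fold change was -0.58 against -0.07 over all tested genes. The 8 were LINC00216, LINC00641, LINC00696, LINC01004, LINC01296, LINC01355, LINC01619 and LINC01730, and all 8 were among the 52 higher in nuclear than in cytosolic RNA. These comparisons share the nuclear libraries, whose counts also helped to choose the 115 genes, a choice that favours values below nuclear. In the 8, the nuclear libraries held 55.4% (LINC00641) to 82.6% (LINC01355) of a gene's counts, against a median of 38.0% over the 115.

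LINC01355 fell by 3.20 on the log2 scale from nuclear to native lamina (SE 0.61, adjusted p = 0.0142), LINC01730 fell by 3.20 (SE 0.83, adjusted p = 0.0391) and LINC00216 by 2.81 (SE 0.59, adjusted p = 0.02). None of the 8 calls held without either nuclear or either native lamina library. More genes were lower without either PFA lamina library, in fits whose share over all tested genes is not given. LINC01619 shares exonic bases with BTG1 and LINC01296 has no single place in the gene models.

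Against the cytosolic fraction, 14 LINC genes passed as higher at the native lamina and 2 as lower, where 6.99% and 6.77% of all tested genes were. The median log2 fold change was 0.75 against 0.10. LINC01004 was higher by 3.48 (SE 0.67, adjusted p = 0.00854), LINC01876 by 3.46 (SE 0.89, adjusted p = 0.0242) and LINC00342 by 2.68 (SE 0.51, adjusted p = 0.00837). LINC01876 had 4.26 and 4.72 CPM at the native lamina against 0.669 and 0 in cytosolic libraries, groups that did not overlap. LINC00998 was lower by a log2 fold change of -1.98 (SE 0.54, adjusted p = 0.0293) and LINC02381 by -1.33 (SE 0.36, adjusted p = 0.0304). All 14 were also higher in nuclear than in cytosolic RNA, a comparison that shares the cytosolic libraries. None of the 14 calls held without either cytosolic library, and fewer genes passed as higher without either native lamina library. More passed without either PFA lamina library, in fits whose share over all tested genes is not given. The 2 became 0 without any 1 of those 4 cytosolic and native libraries.

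At the PFA lamina, 2 LINC genes were higher than in the nuclear fraction and 22 were lower, where 9.63% and 7.81% of all tested genes were. The median log2 fold change was -0.78 against -0.04. LINC02381 was higher by 1.68 (SE 0.38, adjusted p = 0.0149), a call lost without nuclear replicate 1 or PFA lamina replicate 1. LINC01003 was the other, with 8.13 and 10.7 CPM against 2.02 and 3.44 (1.77, SE 0.55, adjusted p = 0.0423), and is named here after its values were seen. The 2 became 0 without nuclear replicate 1, and 1 without nuclear replicate 2, PFA lamina replicate 1 or either native lamina library.

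Among the 22, LINC00216 was at 1 and 3 counts in the PFA lamina libraries against 84 and 92 in the nuclear ones, at least 17.4-fold lower (edgeR, adjusted p = 0.00621). LINC01355 fell by 3.59 (SE 0.66, adjusted p = 0.00786) and LINC01004 by 3.37 (SE 0.59, adjusted p = 0.00723). All 22 were higher in nuclear than in cytosolic RNA, and 8 of the 22 were also lower at the native lamina; all these comparisons share the nuclear libraries. Leaving out nuclear replicate 1 ended all calls, and leaving out nuclear replicate 2 or PFA lamina replicate 1 ended most. More genes were lower without PFA lamina replicate 2, in a fit whose share over all tested genes is not given.

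**Figure D4:**
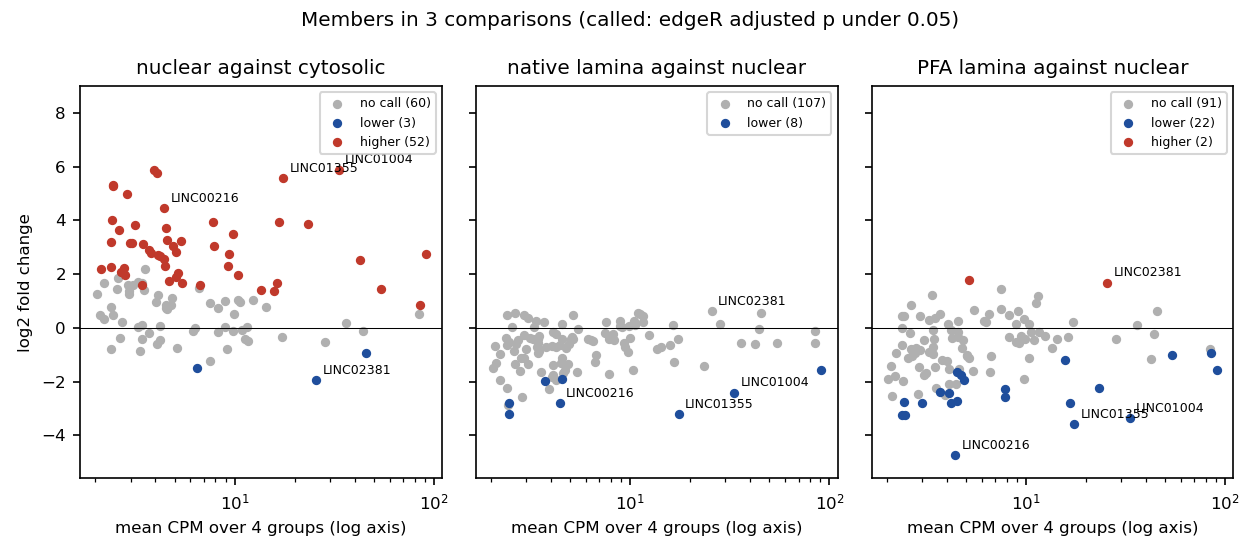
Log2 fold change of the 115 LINC genes (vertical axis) against mean CPM over the 4 groups (log axis) for nuclear against cytosolic, native lamina against nuclear and PFA lamina against nuclear. Red points passed as higher (52, 0 and 2) and blue points as lower (3, 8 and 22). The 3 panels share the nuclear libraries.

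Against the cytosolic fraction, no LINC gene passed at the PFA lamina in either direction, where 0.527% of all tested genes were higher and 0.145% lower. At an unadjusted p under 0.05, 22 were higher and 1 lower, where 3556 of the 16504 tested genes passed in either direction. The smallest adjusted p was 0.0528 (edgeR), and the Wald test of DESeq2 called 7 higher. The share of all tested genes that DESeq2 called is not given here. Calls also appeared without PFA lamina replicate 1, a fit with a single library in that group and no such share. LINC01004 had 2.96 and 18.4 CPM at the PFA lamina, and LINC01355 0.924 and 9.93, so in both genes the PFA replicates lay further apart, as a ratio, than the replicates of any other group.

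No LINC gene passed between the PFA lamina and the native lamina, and 0.0% of all tested genes did in either direction. At an unadjusted p under 0.05, 3 were higher and 8 lower, where 1821 of the 16504 tested genes passed in either direction. The smallest adjusted p was 0.316 (edgeR), and DESeq2 called 0. Some were lower without PFA lamina replicate 2, a fit with a single library in that group whose share over all tested genes is not given. A p above the threshold does not show that the preparations were alike.

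By group means, 79 of the 115 LINC genes (68.7%) lay between both fractions at the native lamina, 15 above both and 21 below both. Among all tested genes 60.6% lay between. At the PFA lamina 71 lay between (61.7%, against 61.4%), 23 above and 21 below. No LINC gene passed as higher, or as lower, than both fractions at either preparation.

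Place was set against the HCT116 domains for the 113 LINC genes with a single place. Outside the domains in all 3 stages were 100 of them (88.5%), against 96.3% of tested genes with a single place and 90.1% of all such rows. Wholly inside a domain lay 9 in G1 (7.96%), 10 in S (8.85%) and 12 in G2 (10.6%), where 1.72%, 1.47% and 2.60% of tested genes and 6.68%, 5.88% and 8.22% of all rows did. In all 3 stages, 7 (6.19%) were inside. The share inside in all 3 stages was 1.17% of tested genes with a single place, 18.0% of LINC rows below 100 counts and 5.17% of all rows. Each stage has 1 consensus list pooled over its replicates, so the spread between replicates is not seen. The domains come from another cell line, and no test was made. Among genes with at least 300 counts, 1 lay inside in all 3 stages.

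The 7 were LINC00473, LINC00632, LINC00645, LINC00662, LINC00999, LINC01415 and LINC01534, and their level per kilobase ranked 51 to 109 among the 115. LINC00632, the locus from which the circular RNA CDR1as derives, lies at chrX:139791924-139854841, 691923 bases from the nearest domain edge in each stage. It had 17.3 and 12.9 CPM in nuclear, 2.41 and 1.06 in cytosolic, 10.5 and 11.9 in native lamina and 1.29 and 5.52 in PFA lamina libraries. The native values were close below the nuclear ones and the PFA pair overlapped the cytosolic range. It was higher in nuclear than in cytosolic RNA by 3.05 (SE 0.61, adjusted p = 0.00209), and at the native lamina it was higher than in cytosolic RNA by 2.62 (SE 0.60, adjusted p = 0.0163). It was lower at the PFA lamina than in nuclear RNA by a log2 fold change of -2.28 (SE 0.61, adjusted p = 0.0252), and its change from nuclear to native lamina was -0.43 (SE 0.52, adjusted p = 0.622).

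LINC01415, at chr18:53441832-53448956, had 11.7 and 7.90 CPM in nuclear, 0.267 and 0 in cytosolic, 3.22 and 2.50 in native lamina and 2.03 and 5.15 in PFA lamina libraries, so all lamina values lay between the fractions. LINC00645, at chr14:28081794-28108842, had 10.9 and 5.50 CPM in nuclear and 0.401 and 0 in cytosolic libraries, at least 15.8-fold higher (edgeR, adjusted p = 0.00374). LINC00473, known as a target of cyclic AMP signalling, had 2.49 and 13.4 CPM in the nuclear libraries, a gap wider than its group difference from 0.535 and 3.17 in cytosolic ones, and did not pass (adjusted p = 0.0697). LINC00662 (5.91 and 6.19 CPM in nuclear, 5.35 and 8.04 in cytosolic) and LINC00999 (7.63 and 1.72 against 5.75 and 3.17) overlapped between fractions. LINC00999 lay 17073 bases inside the domain edge in each stage.

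Across the 7 genes the summed level was 60.9 and 50.9 CPM in nuclear, 15.6 and 17.1 in cytosolic, 26.8 and 30.6 in native lamina and 13.3 and 32.7 in PFA lamina libraries. Across the 100 outside it was 1660.3 and 1529.9, 772 and 675, 947 and 958, and 837 and 1012 CPM in the same order. In both sets the nuclear libraries were highest and the native lamina lay between the fractions. Between fractions, 3 of the 7 were higher in nuclear RNA (median log2 fold change 2.18) and 44 of the 100 (1.40), with 0 and 3 lower. Of all tested genes 26.1% were higher and 21.2% lower. Nuclear counts helped to choose both sets, and the difference between them was not tested. LINC00645 and LINC01415, both called higher, would not reach 100 counts without the nuclear libraries. LINC00473 and LINC01534, which had no call, would not either, while LINC00632, LINC00662 and LINC00999 would.

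Another 6 genes were inside in some stages. LINC01551 was inside in G1 and S, LINC01535 in G1 and G2, and the neighbours LINC01158 and LINC01159 on chromosome 2 in S and G2. LINC00893 and LINC01605 were inside in G2 without being so in the other stages, LINC01605 partly inside in G1. LINC01159 was higher in nuclear than in cytosolic RNA by 3.16 (SE 0.69, adjusted p = 0.00323), while LINC01158 had overlapping fractions (5.45 and 1.89 against 6.82 and 2.75 CPM). Stage was set in HCT116, whereas the RNA came from asynchronous cells.

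**Figure D5:**
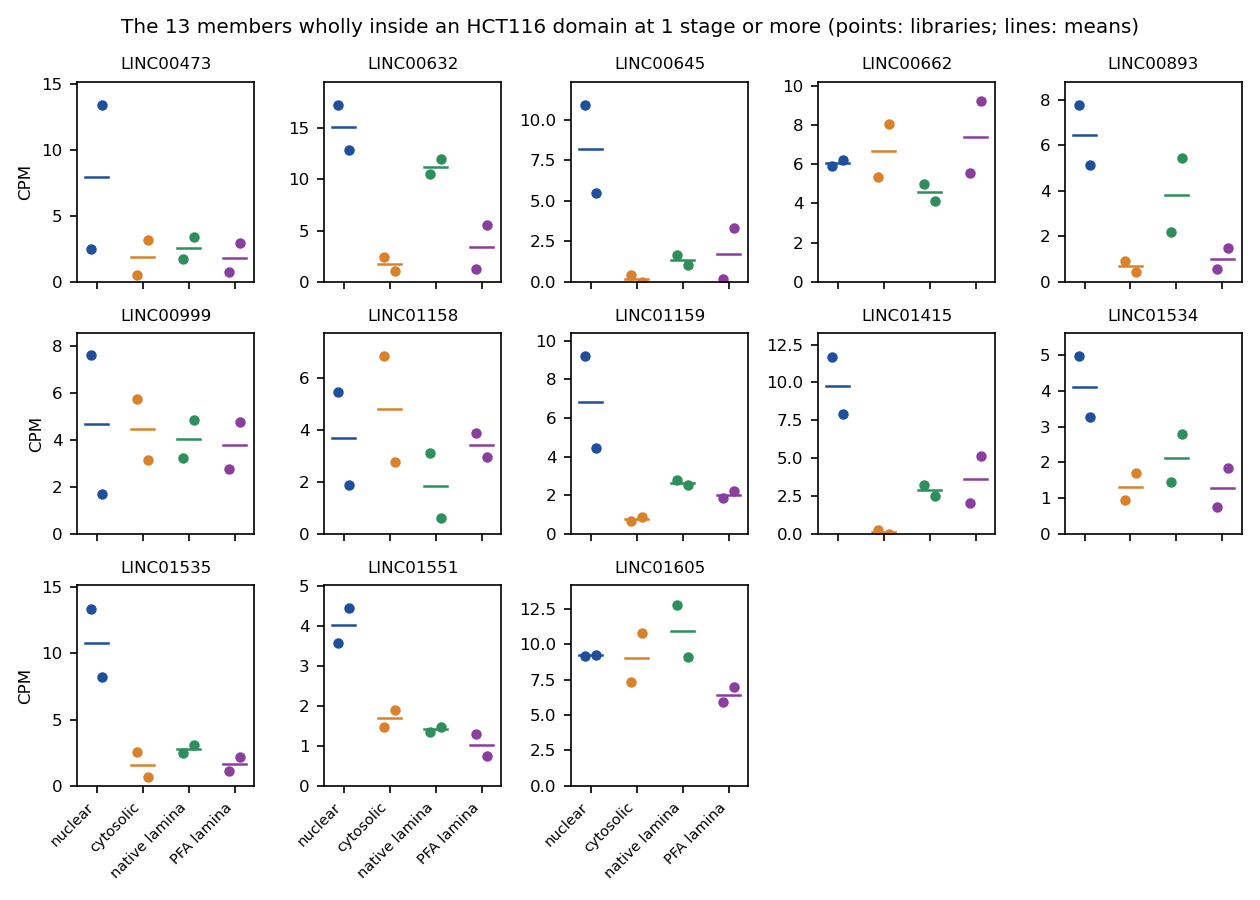
Normalised CPM (vertical axes, from 0) of the 13 LINC genes wholly inside an HCT116 domain in 1 stage or more, in the 2 libraries of each HEK293FT group (points), with group means as lines. LINC00632, LINC01415 and LINC00645 are highest in both nuclear libraries, and LINC00662, LINC00999 and LINC01158 overlap between fractions.

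The start regions of LINC genes called higher in nuclear RNA held fewer CG dinucleotides, by their median, than those of LINC genes with no call between fractions. Windows of 300 bases around the start, most of them upstream, from RefSeq on GRCh38.p14, were matched for 88 of the 115. The dinucleotide CG, counted on the printed strand and the same on both, had a median of 20 per window against 14 in all 27305 windows, and 98.9% against 95.8% held at least 1. In the 36 matched genes higher in nuclear RNA the median was 10.5, and 12 of them (33.3%) held 20 or more, where 41.2% of all windows did. In the 49 with no call it was 24, and 31 (63.3%) held 20 or more. The motif GGGCGG on either strand was in 44.4% of the 36 and 59.2% of the 49, against 44.6% of all windows. This was noticed in these data and not tested, starts in GRCh38.p14 may differ from the hg19 models counted, and a match of letters is not a bound site.

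The classes overlapped, with 0 to 41 CG in the genes higher in nuclear RNA and 1 to 43 in those with no call. Windows of 4 genes described above are given 5′ to 3′ on the gene's strand, with each CG in capitals. They were picked as genes with values given above and do not show the full spread of either class. Both examples higher in nuclear RNA lie below their class median of 10.5 CG. LINC01578 lies above the median of 24 in genes with no call, so these examples are further apart than the medians. LINC01355 and LINC00641 were higher in nuclear RNA and have 0 and 2 CG, LINC02381 was higher in the cytosol and has 13, and LINC01578 did not pass and has 36. Their GC contents are 35.3%, 39.0%, 59.3% and 74.7%. They lie at chr1:23285469-23285768 (minus strand), chr14:21206851-21207150 (minus), chr12:54125821-54126120 (plus) and chr15:92882593-92882892 (plus) of GRCh38.p14.
LINC01355: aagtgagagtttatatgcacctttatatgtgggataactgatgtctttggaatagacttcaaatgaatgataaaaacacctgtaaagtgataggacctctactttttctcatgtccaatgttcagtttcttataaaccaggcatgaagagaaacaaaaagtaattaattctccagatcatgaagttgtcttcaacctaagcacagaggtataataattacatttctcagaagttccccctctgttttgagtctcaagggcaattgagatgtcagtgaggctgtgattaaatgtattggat
LINC00641: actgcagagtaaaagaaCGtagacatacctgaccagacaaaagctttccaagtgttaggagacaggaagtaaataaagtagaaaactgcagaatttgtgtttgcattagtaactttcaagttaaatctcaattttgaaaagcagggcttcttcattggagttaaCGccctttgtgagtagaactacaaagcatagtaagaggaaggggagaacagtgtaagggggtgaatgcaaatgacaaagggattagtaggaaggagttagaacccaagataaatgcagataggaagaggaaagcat
LINC02381: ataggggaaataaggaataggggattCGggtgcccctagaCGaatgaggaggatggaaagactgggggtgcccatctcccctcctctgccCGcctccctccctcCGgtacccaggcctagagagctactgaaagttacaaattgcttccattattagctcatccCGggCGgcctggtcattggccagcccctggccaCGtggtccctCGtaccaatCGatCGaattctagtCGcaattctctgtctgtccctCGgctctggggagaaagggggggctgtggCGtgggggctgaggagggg
LINC01578: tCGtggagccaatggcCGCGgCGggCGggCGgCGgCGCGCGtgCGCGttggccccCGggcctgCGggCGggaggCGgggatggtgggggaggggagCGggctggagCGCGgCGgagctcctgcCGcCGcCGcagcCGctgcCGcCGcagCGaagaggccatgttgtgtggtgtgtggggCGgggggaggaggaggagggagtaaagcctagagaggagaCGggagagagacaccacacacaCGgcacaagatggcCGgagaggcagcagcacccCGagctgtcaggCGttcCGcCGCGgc

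Long RNAs with names of their own were taken as a reference list of 26, of which 25 were tested. In nuclear against cytosolic RNA 10 were higher and 1 lower (26.1% and 21.2% of all tested genes), with a median log2 fold change of 0.60. Strand was ignored in counting, and overlaps of this list with other rows were not examined. Antisense rows such as XIST and TSIX, both among the 10, can therefore hold the same reads. KCNQ1OT1, an imprinted antisense RNA, had 942 and 1194 CPM in nuclear and 18.7 and 20.9 in cytosolic libraries (5.75, SE 1.01, adjusted p = 0.00123). DANCR, a small nucleolar RNA host gene, was the one lower, with 15.1 and 12.4 against 35.2 and 31.9 CPM (-1.29, SE 0.42, adjusted p = 0.0239). Both pairs were apart. The native lamina had 0 above and 1 below nuclear RNA (3.87% and 3.44% of all tested genes), and 6 above and 4 below cytosolic RNA (6.99% and 6.77%). The PFA lamina had 1 above and 8 below nuclear RNA (9.63% and 7.81%), and 2 above and 0 below cytosolic RNA (0.527% and 0.145%). MALAT1, the RNA of nuclear speckles, had 595 and 3079 CPM in PFA lamina replicates 1 and 2, the same order of replicates as LINC01004 and LINC01355.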

How the data were processed

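RNA of 8 HEK293FT libraries was deposited as raw read counts. Per the file headers, the authors counted with featureCounts on hg19 and RefFlat models, ignoring strand and counting a read once for each gene it overlaps. TopHat2 2.1.1, Bowtie2 2.3.2 and Subread 1.5.2 are named in the submitters' processing notes. In cytosolic replicate 1, the header's output carries the name of nuclear replicate 1 and its input that of cytosolic replicate 1, and the label was kept. Domain lists were deposited as intervals without scores.

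LINC genes were taken at 100 or more counts over 8 libraries. The members and lists were chosen with earlier results of these data known. Genes kept by filterByExpr (16504) were tested in 1 fit of all 8 libraries with edgeR 4.0.16 (TMM, quasi-likelihood, R 4.3.3, limma 3.58.1), without a block, in 6 contrasts, each adjusted by Benjamini-Hochberg, after a test on simulated data. CPM values use TMM-scaled totals. SE is the absolute log2 fold change divided by the square root of F. The floor was 3 counts per library (0.312 to 1.10 CPM). Intervals and floors cover counting error within a library only, not the spread between libraries. Reads carry no molecular identifiers, so copies of the same molecule can count as separate reads. Named genes were the 10 highest per kilobase, the called genes with the largest changes (6 each way between fractions, 3 in other contrasts, 30 or more counts throughout the higher group), a list of 18 symbols of which 7 were members, and 6 inside domains in all 3 stages. Alternatives were other scalings, no filter, DESeq2 1.42.0, a replicate block, fits of 4 libraries and leaving out each library. Samples of another cell line whose labels contradict each other, and H3K9me3 data, were not used here.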

Additional observations from a re-analysis of the deposited data

How the results depend on the processing

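Values of 38 gene comparisons were recomputed 570 times in all: 497 kept direction and side of the threshold, 46 lost the call, 15 gained one and 12 changed sign. The sign changes were in genes without a call between fractions: LINC00339 (-0.0024 without a filter, -0.27 to 0.35 leaving out 1 library), LINC00662 (0.14 with upper-quartile factors, -0.43 to 0.15 leaving out 1 library), LINC00999 (-1.39 to 0.73 leaving out 1), LINC01578 (-0.20 to 0.49 leaving out 1) and LINC01715 (0.14 with upper-quartile factors). The median of PFA against native lamina, -0.09, was 0.11 without PFA lamina replicate 1 and -0.52 without replicate 2.

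Leaving out each library in turn gave 29 to 64 genes higher and 1 to 4 lower in nuclear than in cytosolic RNA. At the native lamina it gave 0 to 25 lower than nuclear, 0 to 33 higher than cytosolic and 0 to 2 lower. At the PFA lamina it gave 0 to 3 higher and 0 to 40 lower than nuclear, 0 to 24 higher and 0 to 1 lower than cytosolic, and 0 to 9 lower than native. The cause of these changes was not tested, beyond fewer samples. Shares of all tested genes are given for the main fit only, so counts from other fits cannot be set against them. With upper-quartile factors 1 was lower in nuclear RNA, and 1 each higher at the PFA lamina than in nuclear and in cytosolic RNA. With total counts, 3 and 7 were lower at the native and PFA lamina than in nuclear RNA and 0 lower at the native lamina than in cytosolic RNA. With no filter, the native lamina had 21 below nuclear and 25 above cytosolic, and the PFA lamina 4 above nuclear, 13 above cytosolic and 1 below native. Fits of 4 libraries gave 30 lower than nuclear and 27 higher than cytosolic at the native lamina, and 0 higher and 5 lower than nuclear at the PFA lamina. DESeq2's Wald test gave 7 higher at the PFA lamina than in cytosolic RNA. Members chosen on lamina counts alone gave 25 of 56 higher in nuclear RNA. At 300 counts or more, 1, 1 and 2 genes lay inside domains in G1, S and G2, and 1 in all 3. Total counts moved the median of all genes by 0.28 in native lamina against nuclear and upper-quartile factors by 0.27 between fractions, while the LINC median relative to all genes stayed at 1.29 to 1.32 between fractions.

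With the replicate block, 2 genes were higher at the PFA lamina than in cytosolic RNA, and 54 and 4 were higher and lower in nuclear than in cytosolic RNA. The labels do not say that equal replicate numbers share a culture or day. Deviations of same-numbered libraries correlated at -0.07 to 0.32 over the 6 pairs of groups.

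The least deep library, PFA lamina replicate 2, has 2321291 counts, and its floor of 3 counts equals 1.10 CPM. Groups of 2 libraries limit all tests.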
